A study of Mus musculus with 12 samples.

Results

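The genes described here are 9 markers and regulators of alternative macrophage activation: Il4ra, Stat6, Irf4, Klf4, Pparg, Arg1, Chil3, Tgm2 and Alox15. They were chosen by gene symbol and not by a cut on their values, though with earlier results of these data known. All 9 of 9 symbols were found among the 16145 genes listed in at least 1 library. RNA was sequenced from bone marrow-derived macrophages, cells grown from mouse marrow for 7 days with M-CSF, the growth factor that drives macrophage formation, at the labelled 20 ng/µL. The 12 libraries form 4 groups of 3. Wild-type (WT) cells received vehicle for 12 h, 120 µM 4-OI for 15 h, or 15 µM hemin for 12 h, and cells labelled Irg1KO received vehicle for 12 h. 4-OI is 4-octyl itaconate, a cell-permeable ester of itaconate, and hemin is oxidised heme. The enzyme that makes itaconate is encoded by Irg1, now called Acod1. No group is labelled as given IL-4 or IL-13, and the labels give no age, sex, strain or knockout allele. The labels do not say whether the 3 libraries of a group came from separate mice or cultures, so the spread behind each p-value is that of these libraries and may be technical. The 4-OI libraries differ from all others in hours as well as in agent, and these cannot be told apart.

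In alternative activation, the cytokines IL-4 and IL-13 bind a receptor built around IL-4Rα, the product of Il4ra, and the receptor's kinases phosphorylate the transcription factor STAT6. STAT6 enters the nucleus and works with IRF4, KLF4 and PPARγ to raise effector genes. In mouse macrophages these include Arg1, which splits arginine into ornithine and urea, Chil3, which encodes the secreted chitinase-like protein Ym1, Tgm2, a protein cross-linking transglutaminase, and Alox15, which oxidises polyunsaturated fatty acids.

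Library totals ran from 9405112 to 22390882 expected counts. Levels below are CPM, counts scaled to a common library size by TMM, given as mean ± SD with n = 3, and comparisons are log2 fold changes with their standard error (SE). Calls are at an adjusted p under 0.05 by edgeR's quasi-likelihood test with Benjamini-Hochberg adjustment over 12148 tested genes. Acod1, the gene named by the knockout label, had 300, 240 and 333 counts in the Irg1KO libraries and 462, 705 and 286 in WT vehicle, and was not called between them (log2 fold change -0.48, SE 0.26, adjusted p = 0.194). Its scaled counts overlapped between the genotype labels (13.6 to 26.3 CPM against 25.01 to 30.5 CPM). Its FPKM did not overlap (4.20 to 8.76 against 10.3 to 12.3), and it was called lower on log2(FPKM + 1) (-0.71, limma, adjusted p = 0.0108), on log2(FPKM + 0.1) (-0.79, adjusted p = 0.00946) and on counts with no filter (-0.50, adjusted p = 4.38e-09). Its mean transcript length was 3132 to 3382 nt in the Irg1KO libraries and 2594 to 2653 nt in the others. The 9 macrophage markers, which include Lyz2 and Csf1r, summed to 22338 to 27195 CPM in every library. The 11 fibroblast and stromal markers summed to 10833 to 12119 CPM in the libraries labelled Irg1KO and to 1661 to 2268 CPM in the other 9. Of these markers 9 were tested and all 9 rose in the libraries labelled Irg1KO, and Dcn and Lum were under 10 counts in all 12.

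Per transcript length, on the FPKM scale, the 9 genes spanned a wide range in vehicle-treated WT cells. Tgm2 led with a mean of 78.9 FPKM, followed by Stat6 at 64.3 and Il4ra at 51.1, which ranked 965, 1197 and 1568 among all listed genes. Pparg stood at 7.85 FPKM, Klf4 at 1.80 and Chil3 at 1.40. The bottom of the order was Arg1 at 0.467, Irf4 at 0.343 and Alox15 at 0.0600 FPKM. The 3 vehicle values of Arg1 (0.33 to 0.62) and of Irf4 (0.28 to 0.46) overlapped, and no other neighbours in this order did.

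Promoter sequence is shown for 3 genes, a receptor, a transcription factor and an effector, as 1 example of each role, from the members that were called against vehicle at least once and hold a match to a motif that was searched. The sequences are the 250 bases before the start site in RefSeq, build GRCm38.p6, written 5′ to 3′ on the gene's strand with the match in capitals. The Il4ra window is chr7:125552021-125552270 on the plus strand, and its capitals mark a match to the NRF2 antioxidant response element 60 to 52 bases before the start. The Irf4 window is chr13:30748983-30749232 on the plus strand, with a TATA box 26 to 21 bases before the start. The Chil3 window is chr3:106167565-106167814 on the minus strand, with a STAT-type palindrome 172 to 164 bases before the start.
Il4ra: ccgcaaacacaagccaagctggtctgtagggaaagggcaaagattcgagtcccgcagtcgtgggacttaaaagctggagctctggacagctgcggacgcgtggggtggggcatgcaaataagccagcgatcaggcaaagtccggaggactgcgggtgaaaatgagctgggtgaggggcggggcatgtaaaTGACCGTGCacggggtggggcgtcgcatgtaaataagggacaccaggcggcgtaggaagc
Irf4: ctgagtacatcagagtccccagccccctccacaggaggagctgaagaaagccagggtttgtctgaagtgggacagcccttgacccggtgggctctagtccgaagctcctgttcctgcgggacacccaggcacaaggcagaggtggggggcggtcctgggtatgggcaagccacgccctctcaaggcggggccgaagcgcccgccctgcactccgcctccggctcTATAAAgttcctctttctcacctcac
Chil3: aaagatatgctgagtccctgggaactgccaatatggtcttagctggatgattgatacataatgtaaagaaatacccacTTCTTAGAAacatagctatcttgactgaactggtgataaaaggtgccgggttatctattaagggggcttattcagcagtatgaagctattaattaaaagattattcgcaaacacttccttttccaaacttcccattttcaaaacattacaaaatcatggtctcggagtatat
On both strands, TGACNNNGC was found in 10.2% of all 32851 RefSeq promoter windows of this length, TATAAA in 12.4% and TTCNNNGAA in 7.02%. The STAT6 motif, a palindrome with 1 more base in its spacer, was found in 5.85% of windows. The interferon-stimulated response element was found in 2.98%. Neither matched a window of the 6 members that had any in the promoter set used here. Those 6 are Il4ra, Stat6, Irf4, Klf4, Pparg and Chil3. Pparg, not printed here, also holds matches in the window of its second start site, to the NRF2 element 233 to 225 bases and to the TATA box 29 to 24 bases before the start. Both Pparg matches lie on the strand opposite to the gene's, so its TATA letters run against the direction of the gene, unlike those of Irf4. A match is a description of these letters, not a bound site.

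**Figure D1:**
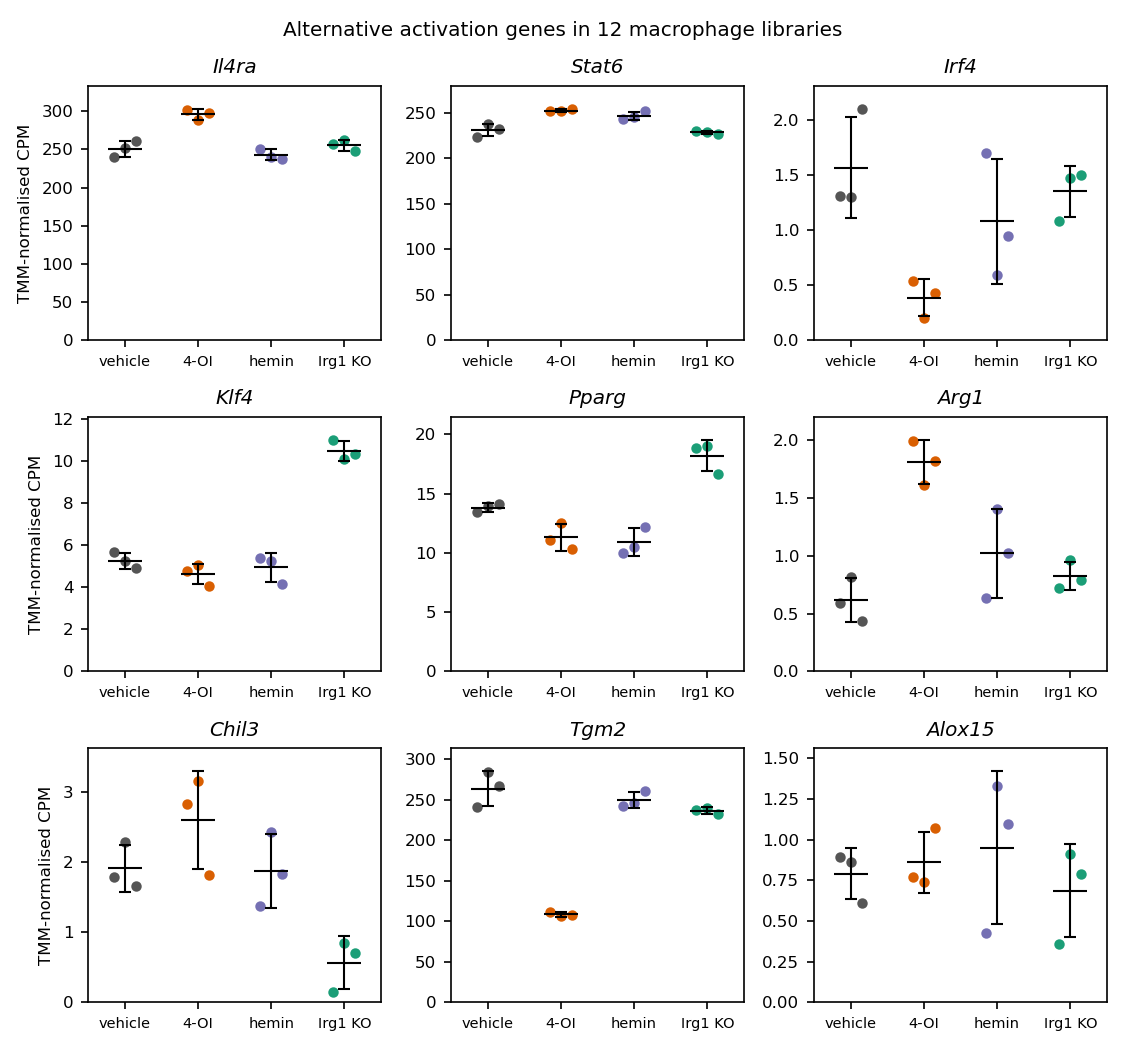
TMM-normalised CPM of the 9 genes, 1 panel a gene, with 1 point per library, a bar at the group mean and whiskers of 1 SD (n = 3). Tgm2 and Irf4 sit lowest with 4-OI, Klf4 and Pparg sit highest in the libraries labelled Irg1KO, and the axes differ between panels because the genes differ widely in level.

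Il4ra, the receptor chain shared by IL-4 and IL-13 signalling, rose modestly with 4-OI. It measured 240, 252 and 261 CPM in vehicle and 302, 288 and 298 CPM with 4-OI, and the groups did not overlap. The log2 fold change was 0.24 (SE 0.05, adjusted p = 4.26e-05). The rise is smaller on log2(FPKM + 1), where it was 0.10 and not called (limma, adjusted p = 0.0761), on a scale whose median over all genes lies at -0.11, so that it stood 0.20 above that median. In hemin-treated cells it measured 251, 241 and 237 CPM, inside or just below the vehicle range, and the difference from vehicle was -0.05 (SE 0.05, adjusted p = 0.581). In the libraries labelled Irg1KO it measured 257, 262 and 248 CPM, overlapping vehicle, with a difference of 0.03 (SE 0.05, adjusted p = 0.657) that turns to -0.00 on the FPKM scales. Compared directly, 4-OI exceeded hemin by 0.29 (SE 0.05, adjusted p = 4.63e-06).

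Stat6, which encodes the transcription factor that carries the receptor's signal to the nucleus, varied little across the 12 libraries, from 61.7 to 66.6 FPKM. It measured 224, 238 and 232 CPM in vehicle and 252, 252 and 254 CPM with 4-OI, which lie just above the vehicle range. The count-based log2 fold change with 4-OI was 0.13 (SE 0.04, adjusted p = 0.0159), but on log2(FPKM + 1) it was -0.01 (adjusted p = 0.795), so its direction depends on the scale. Relative to the median of all genes on that scale it stood 0.09 higher. Without WT vehicle replicate 1 the count-based value was 0.11 and not called (adjusted p = 0.0750). With hemin the libraries measured 243, 246 and 252 CPM, also above the vehicle range, and the difference of 0.09 (SE 0.04) was not called (adjusted p = 0.154). The libraries labelled Irg1KO measured 231, 229 and 227 CPM, which overlapped vehicle.

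Irf4, a transcription factor that acts beside STAT6 in alternatively activated macrophages, fell with 4-OI. It had 22, 30 and 24 counts in vehicle and 7, 3 and 4 with 4-OI, and no 4-OI library reached the lowest vehicle library in CPM (0.537, 0.201 and 0.429 against 1.30 to 2.10). The log2 fold change was -1.97 (SE 0.42, adjusted p = 0.000154), a 3.92-fold lower level. With hemin it had 16, 8 and 13 counts, which overlapped vehicle in CPM, and the difference of -0.55 (SE 0.34) was not called (adjusted p = 0.294). With 15, 26 and 19 counts in the libraries labelled Irg1KO, the groups again overlapped. The difference between 4-OI and hemin was -1.41 (SE 0.48, adjusted p = 0.0155). It was not called without 4-OI replicate 2 (-1.04, adjusted p = 0.122) or without hemin replicate 1 (-1.02, adjusted p = 0.126). Irf4 is also a lymphocyte and dendritic cell gene. Of 6 B and plasma cell markers, 4 had a row, of which Cd79a, Ms4a1 and Mzb1 were under 10 counts in all libraries. The summed level of the 4 was 1.13 to 1.86 CPM in vehicle and 0.537 to 0.751 CPM with 4-OI. Only Cd79b was tested, and it was called lower with 4-OI (-1.27). That call was lost without WT vehicle replicate 2 (-0.93, adjusted p = 0.0557). The part of B and plasma cells in the Irf4 result was not tested. Of 8 dendritic cell markers, 7 had a row and summed to 23.0 to 24.0 CPM in vehicle and 39.4 to 45.3 CPM with 4-OI. Flt3, Ccr7, Xcr1, Clec9a and Itgae were under 10 counts throughout. Of 2 tested, only Itgax was called with 4-OI, higher. The part of dendritic cells in the Irf4 result was not tested.

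**Figure D2:**
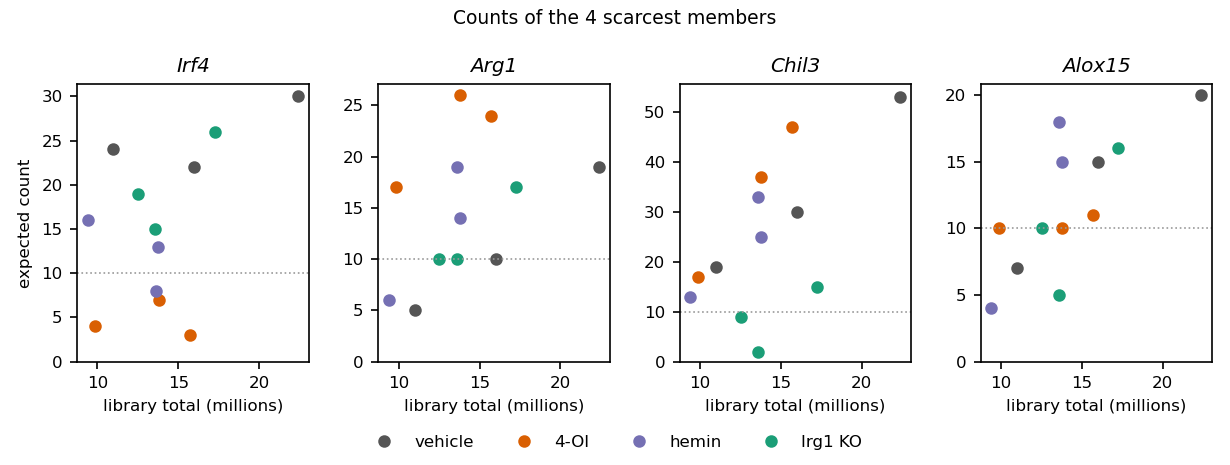
Expected counts of Irf4, Arg1, Chil3 and Alox15 against the library total, with 1 point per library coloured by group and a dotted line at 10 counts. Irf4 lies at 3 to 7 counts with 4-OI and Chil3 at 2 to 15 counts in the libraries labelled Irg1KO, while the Alox15 counts of all 4 groups overlap.

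Klf4, a zinc-finger factor that cooperates with STAT6, was higher in the libraries labelled Irg1KO. It measured 5.66, 5.23 and 4.90 CPM in WT vehicle and 11.0, 10.1 and 10.3 CPM in those libraries, from 131 to 178 counts, and the groups did not overlap. The log2 fold change was 0.98 (SE 0.13, adjusted p = 5.85e-08). With 4-OI it measured 4.76, 5.04 and 4.08 CPM and with hemin 5.41, 5.24 and 4.17 CPM. Both groups overlapped vehicle, and neither difference (-0.18 and -0.11) was called. Fibroblasts and other stromal cells also express Klf4. All 9 tested stromal markers rose in the same libraries, with a median log2 fold change of 2.43. Their part in the Klf4 result was not tested, and in bulk RNA more cells of a type and more RNA per cell cannot be told apart.

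Pparg, the nuclear receptor that drives fatty acid uptake and oxidation genes in alternatively activated macrophages, was called in all 3 comparisons with WT vehicle. It measured 13.4, 14.0 and 14.1 CPM in vehicle, from 161 to 323 counts. The libraries labelled Irg1KO measured 18.9, 19.0 and 16.7 CPM, all above vehicle, a log2 difference of 0.40 (SE 0.10, adjusted p = 0.000886). With 4-OI it measured 11.1, 12.6 and 10.3 CPM, all below vehicle, for a change of -0.27 (SE 0.11, adjusted p = 0.0322). With hemin it measured 9.97, 10.5 and 12.2 CPM, also below vehicle, for a change of -0.33 (SE 0.11, adjusted p = 0.0270). These 2 declines were not called by DESeq2 (adjusted p = 0.0835 with 4-OI and 0.0514 with hemin), and each lost its call when any of 4 single libraries was left out. For 4-OI these were 4-OI replicates 1 and 3 and WT vehicle replicates 2 and 3 (-0.26 to -0.22), and for hemin they were hemin replicates 1 and 2 and WT vehicle replicates 2 and 3 (-0.32 to -0.28). Adipocytes are rich in Pparg. Their markers Adipoq, Cidec, Plin1, Cfd and Retn were under 10 counts in all 12 libraries. The 6 of 7 adipocyte markers with a row, of which Lpl was tested, summed to 1339 to 1364 CPM in vehicle and 779 to 883 CPM in the libraries labelled Irg1KO. The sums were 3559 to 4026 CPM with 4-OI and 2444 to 2725 CPM with hemin. Since the others were under 10 counts, each sum is almost wholly Lpl, which is also in the list of PPARγ targets below. The part of adipocytes in the Pparg results was not tested. The stromal markers given above moved with the Pparg rise in the libraries labelled Irg1KO, and their part in it was not tested.

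Arg1, the arginase whose induction is the best-known mark of alternative activation in mice, rose with 4-OI from a very low level. It had 10, 19 and 5 counts in vehicle and 26, 24 and 17 with 4-OI, which are 0.437 to 0.822 CPM and 1.61 to 1.99 CPM with no overlap. The log2 fold change was 1.45 (SE 0.32, adjusted p = 0.000266), a 2.72-fold higher level, and it was called without each of the 6 libraries in turn (1.31 to 1.75). On the FPKM scale, Arg1 still stood at only 1.24 ± 0.130 with 4-OI. With hemin it had 6, 19 and 14 counts, overlapping vehicle, and the difference of 0.68 (SE 0.36) was not called (adjusted p = 0.210). The libraries labelled Irg1KO, with 10, 17 and 10 counts, also overlapped vehicle (0.35, SE 0.36, adjusted p = 0.480). The direct difference between 4-OI and hemin was 0.76 (SE 0.31, adjusted p = 0.0485), and leaving out any single library except hemin replicate 2 ended that call (0.57 to 0.85). It was also not called by DESeq2 (adjusted p = 0.117), with no count filter (0.0848) or with upper-quartile factors (0.0562). The paralog Arg2 was not analysed here.

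Chil3 was lower in the libraries labelled Irg1KO. It had 30, 53 and 19 counts in WT vehicle and 2, 15 and 9 in those libraries, or 1.66 to 2.29 CPM against 0.145 to 0.852 CPM, with no overlap. The log2 fold change was -1.73 (SE 0.35, adjusted p = 0.000129), a 3.31-fold lower level, and without single libraries it ranged from -2.22 to -1.30. With 4-OI it had 37, 47 and 17 counts and with hemin 13, 33 and 25, both overlapping vehicle, and neither difference (0.45 and -0.03) was called. Immature neutrophils also make Ym1. Of 9 neutrophil markers, 8 had a row, and they summed to 83.9 to 94.4 CPM in WT vehicle and to 41.6 to 45.7 CPM in the libraries labelled Irg1KO. With 4-OI they summed to 339 to 361 CPM, and of 5 tested only Mmp8 and S100a8 were called, both higher. With hemin they summed to 95.3 to 105 CPM, and only Mmp8 was called, higher. In the libraries labelled Irg1KO, Mmp8 (-1.13), S100a9 (-1.25) and Ngp (-1.19), a granule gene of immature neutrophils, fell and S100a8 (0.56) rose, of 5 tested. The Ngp call was lost without Irg1KO replicate 2 (-0.79, adjusted p = 0.0653), and the S100a8 call without Irg1KO replicate 1 (0.53, adjusted p = 0.0716), Irg1KO replicate 3 (0.47, adjusted p = 0.103) or WT vehicle replicate 1 (0.43, adjusted p = 0.126). Elane and Camp, also genes of immature neutrophils, were under 10 counts in all libraries, and the part of these cells in the Chil3 result was not tested. Chil4, a near-identical paralog of Chil3 whose reads could be confused with it, was not analysed here.

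Tgm2 fell with 4-OI and did not pass the test with hemin. It measured 241, 284 and 267 CPM in vehicle and 112, 106 and 107 CPM with 4-OI, from 1001 to 6560 counts. Every 4-OI library lay far below every vehicle library, and the log2 fold change was -1.28 (SE 0.05, adjusted p = 1.84e-21), a 2.43-fold lower level. With hemin it measured 242, 245 and 261 CPM, within the vehicle range, and the difference of -0.08 (SE 0.05) was not called (adjusted p = 0.320). Between 4-OI and hemin the difference was -1.20 (SE 0.05, adjusted p = 4.28e-20). The libraries labelled Irg1KO measured 237, 240 and 232 CPM, just under the lowest vehicle library, for a change of -0.16 (SE 0.05, adjusted p = 0.0118) that was not called without WT vehicle replicate 2 (-0.10, adjusted p = 0.130). Endothelial cells also express Tgm2. The 6 endothelial markers summed to 36.6 to 40.8 CPM in vehicle, 9.59 to 11.0 CPM with 4-OI and 17.6 to 19.8 CPM with hemin. Of 5 tested, only Cdh5 and Kdr were called with 4-OI, both lower, and only Kdr with hemin, also lower. The sum was 30.5 to 34.1 CPM in the libraries labelled Irg1KO, where only Kdr and Vwf were called, both lower. DESeq2 called neither of these 2 there (adjusted p = 0.0615 for Kdr and 0.0895 for Vwf). The part of endothelial cells in the Tgm2 result was not tested.

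Alox15, which in mice encodes a lipoxygenase acting at carbons 12 and 15 of arachidonic acid, was too scarce for its comparisons to be narrow. It had 15, 20 and 7 counts in vehicle, 10, 11 and 10 with 4-OI, 4, 18 and 15 with hemin, and 5, 16 and 10 in the libraries labelled Irg1KO. In CPM all groups overlapped, and no comparison was called. In FPKM the 4-OI libraries (0.09 to 0.11) lay above the vehicle libraries (0.04 to 0.08). The 95% intervals of the log2 fold change were -0.997 to 0.57 for Irg1KO, -0.75 to 0.83 for 4-OI and -0.46 to 1.05 for hemin against vehicle, and they are wide beside those of the abundant members. Its mean transcript length also varied from 6381 to 15289 nt between libraries, which moves its FPKM independently of its counts. Eosinophils also express Alox15. Of 9 eosinophil, mast cell and basophil markers, 5 had a row, with Prg2, Cpa3 and Mcpt4 under 10 counts throughout. The 5 summed to 1.12 to 1.37 CPM in vehicle, 1.15 to 1.88 CPM with 4-OI and 0.951 to 1.40 CPM with hemin. Their sum was 2.16 to 2.96 CPM in the libraries labelled Irg1KO. Only Mcpt8 was tested, and it was called higher in those libraries (1.42) and not with 4-OI or hemin. The list mixes these cell types, so its sum is not a level of eosinophils, and their part in the Alox15 levels was not tested.

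By the rule applied here, that a gene is too low to judge when it fails the low-count filter or has under 10 counts in every library, none of the 9 genes was too low. The filter asked for about 0.731 CPM in at least 3 libraries. Irf4, Arg1, Chil3 and Alox15 passed it but had 4, 2, 2 and 3 libraries under 10 counts. Arg1 reached the filter's level in all 3 4-OI libraries, all 3 libraries labelled Irg1KO, 2 hemin libraries and 1 vehicle library. Irf4 reached it in no 4-OI library and Chil3 in 1 library labelled Irg1KO. These 3 genes thus passed partly through the groups where they were high.

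Across comparisons, the 9 genes did not move as a block. In the libraries labelled Irg1KO against WT vehicle, Klf4 and Pparg rose and Chil3 and Tgm2 fell, 4 of 9, where 39.8% of all tested genes were called. With 4-OI, Il4ra, Stat6 and Arg1 rose and Irf4, Pparg and Tgm2 fell, 6 of 9, against 50.4% of all tested genes. With hemin, Pparg fell and the other 8 were not called, 1 of 9, against 17.2% of all tested genes (9.48% higher and 7.74% lower). Each of these shares lies near its background, and nothing particular to the 9 genes is read from them. These comparisons share the 3 WT vehicle libraries.

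The difference between the compounds was tested directly. Between 4-OI and hemin, Il4ra and Arg1 were higher and Irf4 and Tgm2 lower with 4-OI, 4 of 9, against 42.3% of all tested genes. Between 4-OI in WT cells and vehicle in the Irg1KO-labelled cells, 8 of 9 were called, against 57.7% (23.5% higher and 34.2% lower). There, Il4ra, Stat6, Arg1 and Chil3 were higher and Irf4, Klf4, Pparg and Tgm2 lower with 4-OI, and Alox15 was not called. The largest of these differences were Chil3 at 2.18 (SE 0.35, adjusted p = 1.75e-06) and Irf4 at -1.83 (SE 0.43, adjusted p = 0.000472).

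**Figure D3:**
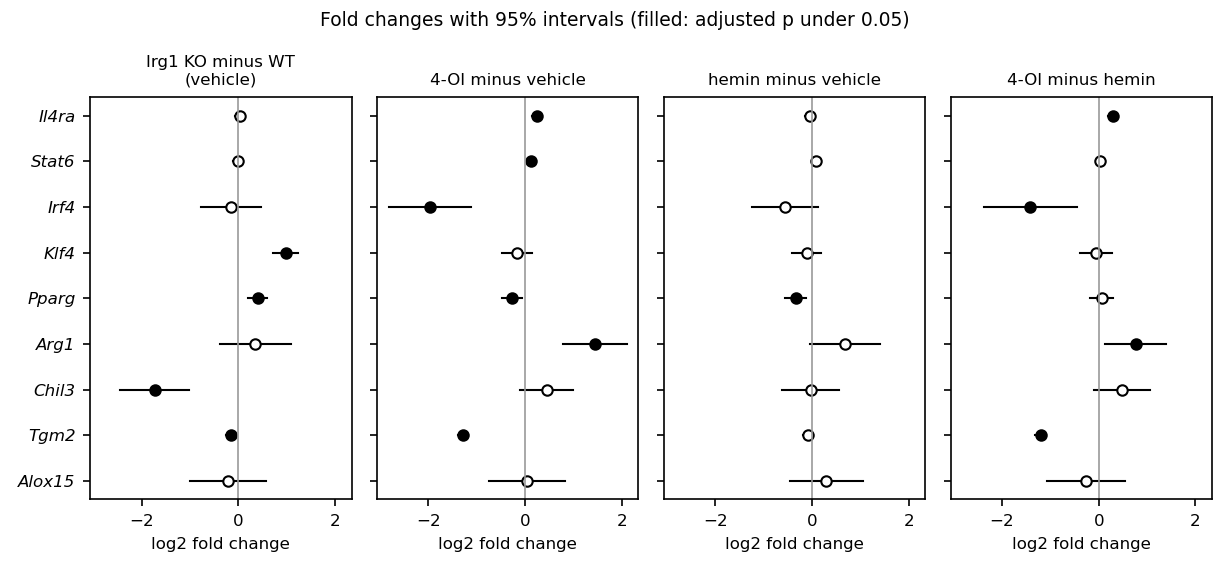
Log2 fold change of each gene (points) with its 95% interval (lines) in 4 comparisons, filled where the adjusted p is under 0.05. The intervals are narrow for Il4ra, Stat6 and Tgm2 and wide for Irf4, Arg1, Chil3 and Alox15, and the Stat6 point with 4-OI at 0.13 turns to -0.01 on the FPKM scale.

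The lists below are read beside the shares of all tested genes called: 50.4% in either direction and 25.4% higher with 4-OI, 9.48% higher and 7.74% lower with hemin, and 23.5% higher and 16.3% lower in the libraries labelled Irg1KO. Nothing particular to a list is read from its counts. The rest of the IL-4 receptor pathway moved in both directions. Of its 11 tested genes, 3 rose and 3 fell with 4-OI (median log2 fold change -0.00, against -0.00 over all genes). Ptpn1, a phosphatase that turns off JAK kinases, rose from 179, 193 and 185 CPM in vehicle to 573, 550 and 560 CPM with 4-OI (1.59, SE 0.05). Socs3, a cytokine signalling inhibitor, rose with 4-OI (0.98), with hemin (0.71) and in the libraries labelled Irg1KO (1.80), where it measured 11.9 to 13.9 CPM against 3.29 to 4.05 CPM in WT vehicle. Its hemin value was not called without hemin replicate 2 (0.54, adjusted p = 0.0529). In those libraries, 2 of the 11 rose and 3 fell (median 0.12), and with hemin 3 rose and none fell (median 0.09). The cytokines Il4 and Il13 were not analysed here.

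Among 18 partner regulators, 7 rose and 4 fell with 4-OI (median 0.06), against 50.4% of all genes called in either direction. With hemin 7 rose and 2 fell (0.07), against 17.2%, and in the libraries labelled Irg1KO 1 rose and 5 fell (-0.07), against 39.8%. Cebpb, a factor that drives Arg1 in mouse macrophages, rose with 4-OI (1.30) and hemin (0.73). Maf, a leucine zipper factor, fell with 4-OI (-1.38). Klf2, a relative of Klf4, rose in the libraries labelled Irg1KO (0.50) and with hemin (0.79) and fell with 4-OI (-0.57).

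Of 24 tested further markers of alternative activation, 7 rose and 9 fell with 4-OI (median -0.17), 7 rose and 4 fell with hemin (0.11), and 5 rose and 8 fell in the libraries labelled Irg1KO (-0.03). Of all tested genes, 50.4%, 17.2% and 39.8% were called in these comparisons, in that order. Mrc1, the mannose receptor, measured 1495, 1529 and 1463 CPM in vehicle, 483, 486 and 482 CPM with 4-OI and 1028, 1007 and 967 CPM with hemin. It fell by 1.63 with 4-OI and by 0.58 with hemin on the log2 scale. Ch25h, which makes 25-hydroxycholesterol, fell with 4-OI (-3.10), as did the scavenger receptor Stab1 (-0.94) and F13a1, a coagulation transglutaminase (-1.08). In the libraries labelled Irg1KO, Fn1 (1.88), a matrix gene that stromal cells also make, Il1rn (1.68) and Vegfa (1.62) rose. The chemokines Ccl17, Ccl22 and Ccl24 did not exceed 5 counts in any library, and Retnla was not analysed here.

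The list held 14 PPARγ target genes, of which 9 had a row and 8 were tested, so the result covers only these 8. All 8 tested genes rose with 4-OI (median 1.496), in the same libraries where Pparg itself was lower. Of all tested genes, 25.4% were called higher. Plin2, which coats lipid droplets, went from 262, 261 and 249 CPM to 1002, 1044 and 1009 CPM (1.98, SE 0.05). The fatty acid transporter Cd36 (1.95), the lipase Lpl (1.46) and Cpt1a (1.12), which carries fatty acids into mitochondria, also rose. The list's counts with 4-OI stayed at 7 to 8 higher and 0 lower under 15 other settings. With hemin 4 rose and 2 fell (median 0.07), led by Abcg1 (1.78), and in the libraries labelled Irg1KO 2 rose and 3 fell (0.04), led by Lpl (-0.68) and Fabp4 (1.23). Several of these genes respond to other factors as well, and the list does not measure PPARγ activity.

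Of 12 tested genes of arginine and polyamine metabolism, 5 rose and 4 fell with 4-OI (median 0.16). For this list and those that follow here, the shares of all tested genes called are the background. They were 50.4% with 4-OI, 17.2% with hemin and 39.8% in the libraries labelled Irg1KO. Ass1, which makes the arginine precursor argininosuccinate, rose from 36.9, 44.7 and 41.5 CPM to 217, 224 and 216 CPM (2.41), and Odc1, which starts polyamine synthesis from ornithine, rose by 0.72, while the arginine transporter Slc7a2 fell (-1.18). With hemin 4 rose and 3 fell (-0.09), with Ass1 at 0.90, and in the libraries labelled Irg1KO 1 rose and 4 fell (-0.11). Nos2, which competes with arginase for arginine, did not exceed 2 counts in any library. Of 13 tested classical activation markers, 3 rose and 7 fell with 4-OI (median -0.48), including Cxcl10 (-3.74) among those that fell and Irf8 (0.99) among those that rose. With hemin 2 rose and 2 fell (-0.02), and in the libraries labelled Irg1KO 4 rose and 3 fell (0.21). Of 4 tested transglutaminases and lipoxygenases other than Tgm2 and Alox15, a list that shares F13a1 with the markers above, 1 rose and 2 fell with 4-OI, 2 rose with hemin, and F13a1 fell in the libraries labelled Irg1KO (-1.03).

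**Figure D4:**
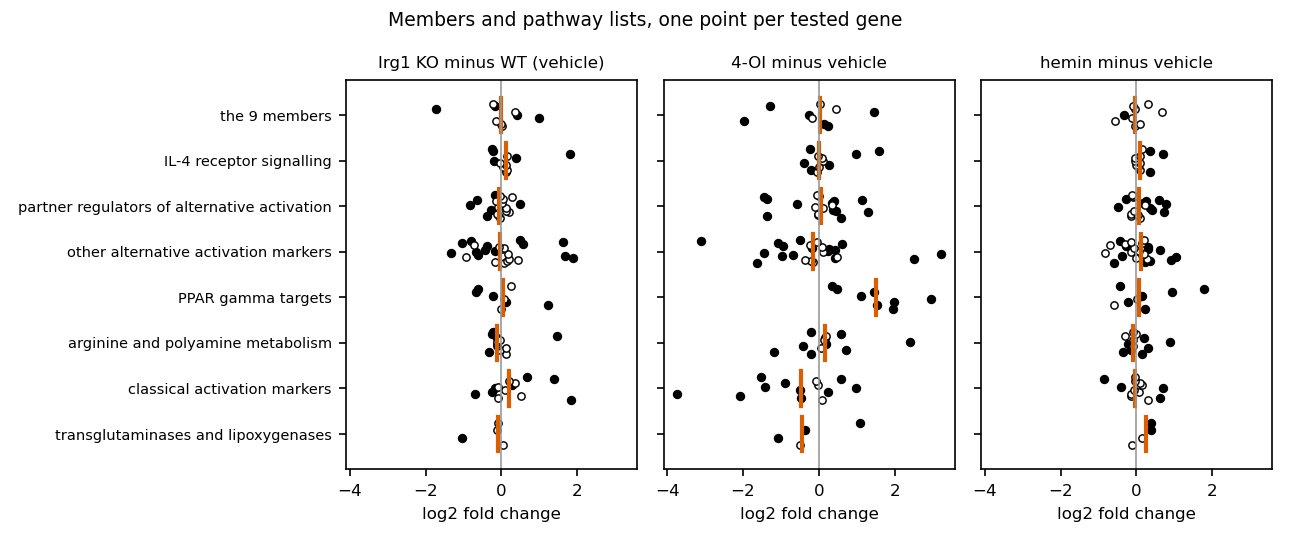
Log2 fold changes of the 9 genes and of 7 pathway lists in 3 comparisons with WT vehicle, 1 point per tested gene, filled where the adjusted p is under 0.05, with an orange line at each median. All 8 tested PPARγ targets lie to the right of 0 with 4-OI while the 9 genes spread to both sides in each panel.

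For each of the 8 genes called against vehicle at least once, the 3 tested genes with the most similar trio of fold changes were found among the 9588 whose average was 5 CPM or more, by Euclidean distance on the log2 scale over the 3 comparisons. Tgm2 lay nearest to Casp4 (distance 0.07), Kif20a and Kif2c, and Arg1 nearest to Clec4d (0.10), Esd and Cebpb. Klf4 lay nearest to Tanc1, Mical2 and Rab23, and Pparg to Scai, N6amt1 and Etv1. Irf4 lay nearest to Mns1, Fat3 and Gbp9, Il4ra to Mtmr3, Chek2 and Crebbp, and Stat6 to Rsbn1, Dcp1a and Nfatc3. Chil3 lay farthest from its nearest gene, Chst3, at a distance of 0.78. Some gene is always nearest, and the distances take no account of the SE. The SE reached 0.42 for Irf4, 0.36 for Arg1 and 0.35 for Chil3, and shared regulation was not tested.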

How the data were processed

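Gene expression was read from 12 deposited tables, 1 per library, each listing a gene's mean transcript length, expected count and FPKM. The submitters' processing notes name the tools RSEM, Bowtie2, StringTie and HISAT2 and the builds mm39 and GRCm39; versions are not given in the sources used here. The expected counts, per the file headers, are estimated reads per gene and not normalized, and all 108 values of the 9 genes were whole numbers (tolerance 0.001). The deposited FPKM values divide them by library total and an effective transcript length, as the values show. A gene with no row in a table was taken as 0. For the main test, these counts were rounded and analysed with edgeR 4.0.16 in R 4.3.3: filterByExpr left 12148 genes, scaling was TMM, each of the 4 groups had its own term in a joint fit of 12 libraries, and the quasi-likelihood F test with robust dispersion was adjusted over all genes tested. SE was derived from the fold change and the F value. Library totals of 9405112 to 22390882 set the precision; the chi-square per degree of freedom between replicates was 2.40 to 4.88. Alternatives were DESeq2 1.42.0, limma 3.58.1 on log2(FPKM + 1) or log2(FPKM + 0.1), which understates changes of low genes, other scaling and filters, a replicate block, 2-group fits, and leaving out each library. The test was checked on simulated data. The 9 genes, 15 gene lists and the tests were chosen with earlier results of these data known. Named beside the 9 were Acod1, up to 4 called genes per list and comparison in order of p, list genes near 0 that bear on a member, and the 3 genes nearest each called member; F13a1 and Lpl are in 2 lists each. Some genes that this rule names are not reported here. Promoters came from the RefSeq table of build GRCm38.p6, and plots from Python 3.11.15 with matplotlib 3.10.9.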

Additional observations from a re-analysis of the deposited data

How the results depend on the processing

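Log2 fold changes of the 9 genes were recomputed under every alternative. Direction turned only for differences that were small or not called, with the Stat6 change with 4-OI the 1 called exception. On log2(FPKM + 1) and log2(FPKM + 0.1) the changed signs were Il4ra in the libraries labelled Irg1KO (-0.0031 in both), Stat6 with 4-OI (-0.012 in both), Stat6 for 4-OI minus hemin (-0.041 in both), Pparg for 4-OI minus hemin (-0.012 and -0.013) and Alox15 for 4-OI minus hemin (0.045 and 0.28); the cause was not tested. Leaving out single libraries turned the sign within these ranges: for Irg1KO minus WT, Il4ra -0.0071 to 0.053, Stat6 -0.043 to 0.00057, Irf4 -0.28 to 0.055 and Alox15 -0.52 to 0.072; for 4-OI, Alox15 -0.11 to 0.14; for hemin, Klf4 -0.17 to 0.0058 and Chil3 -0.26 to 0.15; for 4-OI minus hemin, Klf4 -0.18 to 0.0016, Pparg -0.027 to 0.16 and Alox15 -0.53 to 0.036; and for 4-OI minus Irg1KO, Alox15 -0.032 to 0.56. The number of members called with hemin was 0 in DESeq2 and 0 to 1 without single libraries, and between 4-OI and hemin it was 2 to 4. Between 4-OI and Irg1KO it was 5 on log2(FPKM + 1). Genes called without single libraries numbered 4213 to 4586 for Irg1KO, 5393 to 5794 for 4-OI, 1537 to 2086 for hemin, 4392 to 4749 for 4-OI minus hemin and 6472 to 6702 for 4-OI minus Irg1KO. On log2(FPKM + 1) the genes called with 4-OI were 1744 higher and 4597 lower, against 3083 and 3043 on counts, and with hemin 620 and 1396, against 1152 and 940. Medians of the pathway lists that changed sign under other settings were, with 4-OI, the IL-4 receptor pathway (-0.13 to 0.07), partner regulators (-0.08 to 0.13), and transglutaminases and lipoxygenases (-0.54 to 0.27); for Irg1KO, further markers (-0.07 to 0.01) and PPARγ targets (-0.03 to 0.07); and with hemin, classical markers (-0.06 to 0.11). Medians of the cell type lists changed sign with 4-OI for macrophage (-0.06 to 0.11) and stromal markers (-0.03 to 0.23), for Irg1KO for B and plasma cell markers (-0.49 to 0.02), and with hemin for endothelial (-0.29 to 0.0044), neutrophil (-0.31 to 0.15), dendritic (-0.17 to 0.02), B and plasma cell (-0.33 to 0.17) and eosinophil, mast cell and basophil markers (-0.44 to 0.12). With the replicate number as a block, 4879, 6156, 2159, 5181 and 7043 genes were called in the 5 comparisons, and among the 9 genes the block ended only the Arg1 call for 4-OI minus hemin (0.77, adjusted p = 0.0539). Same-numbered libraries did not deviate together: 18 pairs correlated at -0.09 to 0.07, beside -0.06 to 0.13 in 36 pairs with different numbers. This cannot show whether the numbers mark shared mice or batches, and the labels do not say. Counts under 10 in 2 to 4 libraries limit Irf4, Arg1, Chil3 and Alox15.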
